A study of Rattus norvegicus with 48 samples.

Results

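Arntl, Bhlhe40 and Bhlhe41 are basic helix-loop-helix transcription factors of the circadian clock, and they were examined here in cerebral endothelial cells (CECs) of fed and fasted rats. The 3 members were chosen by name, as the activator Arntl (also called BMAL1, and listed as Bmal1 in RefSeq) and a pair of related repressors. Arntl and Bhlhe40 were paired with the identifiers ENSRNOG00000014448 and ENSRNOG00000007152 by the study's symbol table and had reads in every sample, so 2 of the 13050 genes tested were members. Bhlhe41 was not paired with an identifier in the tables used here, so its counts were not analysed here and only its promoter is shown.

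In the clock, Arntl pairs with CLOCK or its relative NPAS2, and the dimer binds E-box letters in DNA and drives the Per, Cry and Rev-erb (Nr1d1, Nr1d2) genes, whose proteins then act back on the dimer or on the Arntl gene. Transcription of Arntl itself is raised by ROR receptors and lowered by REV-ERB receptors, which share a DNA element. Bhlhe40 (DEC1) and Bhlhe41 (DEC2) bind E-boxes as repressors and so oppose the Arntl dimer, and Bhlhe40 is also known to respond to hypoxia, to nutrients and to other acute signals. Transcripts of such genes oscillate over the day in most tissues, blood vessels included.

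The promoters of the 3 members are shown because they carry the letters through which the clock is known to act on its own genes. Each is the stretch of 250 bases before the transcription start that RefSeq gives in the GRCr8 build, a later build than the Rnor_6.0 build of the deposited counts, and is written 5′ to 3′ along the gene. Capitals mark the E-box CACGTG, the ROR/REV-ERB element TAGGTCA and a near match of it, TAGGTTA, which was added after the letters had been seen. The Arntl stretch lies at chr1:176766078-176766327 on the plus strand, that of Bhlhe40 at chr4:143174200-143174449 on the plus strand and that of Bhlhe41 at chr4:180569356-180569605 on the minus strand.
Arntl: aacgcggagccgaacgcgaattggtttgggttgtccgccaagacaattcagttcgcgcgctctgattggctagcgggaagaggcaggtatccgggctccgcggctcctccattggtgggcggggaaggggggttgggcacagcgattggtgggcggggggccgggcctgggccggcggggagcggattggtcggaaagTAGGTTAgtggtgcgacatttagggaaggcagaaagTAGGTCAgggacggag
Bhlhe40: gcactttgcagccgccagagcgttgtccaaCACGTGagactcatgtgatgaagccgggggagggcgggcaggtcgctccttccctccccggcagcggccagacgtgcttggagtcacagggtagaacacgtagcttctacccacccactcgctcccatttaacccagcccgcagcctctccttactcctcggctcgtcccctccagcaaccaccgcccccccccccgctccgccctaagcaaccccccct
Bhlhe41: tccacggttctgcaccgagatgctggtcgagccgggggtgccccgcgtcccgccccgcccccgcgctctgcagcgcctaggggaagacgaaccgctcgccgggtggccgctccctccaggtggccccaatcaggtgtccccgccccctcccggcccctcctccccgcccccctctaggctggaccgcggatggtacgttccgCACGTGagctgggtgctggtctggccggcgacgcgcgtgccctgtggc

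Both repressor promoters held the E-box and the activator promoter did not. The E-box began 220 bases before the start of Bhlhe40 and 48 bases before that of Bhlhe41. Over the windows of 300 bases that RefSeq gives (250 bases before the start and 50 after), 6.42% of 33469 rat promoters held CACGTG. The Arntl promoter held TAGGTCA, beginning 16 bases before the start, against 2.63% of all promoters. It also held TAGGTTA, beginning 52 bases before the start. TAGGTTA was chosen after these letters had been seen, so its share of 1.61% of all promoters does not measure how unusual the match is. Both strands of each 300-base window were searched. The other letters searched, the E-box variant CACGTT (4.83% of all promoters), the second ROR/REV-ERB form TGGGTCA (4.09%), the D-box TTATGTAA (0.893%) and the cyclic AMP element TGACGTCA (1.83%), were in none of the 3 windows. GC content of the printed stretches was 64% in Arntl, 66% in Bhlhe40 and 75.2% in Bhlhe41, against a median of 51.2%. The letters CG, which CACGTG contains, occurred 23, 17 and 29 times in them, against a median of 5. The share with CACGTG among promoters of like content was not computed. Among 11 of 14 core clock genes with a promoter in the table, Ciart alone held CACGTG in its window. These matches describe letters in the reference sequence, and binding was not measured.

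CECs were sorted by magnetic beads (CD31+ after depletion of CD11b+ cells) from the cerebral cortex of male Wistar-Han rats that either had food at will (AL, ad libitum) or went without it for 1 day (F1), 2 days (F2) or 3 days (F3), water being free to all. Each group had 3 samples (i, j and k) prepared from pooled cortices, so that a sample stands for several rats, and each sample was sequenced as 4 technical replicates. Food was withdrawn and fasted rats were killed at the same hour of the morning on a 12:12 light cycle. The fasted groups were thus seen at 1 hour of the day and no rhythm could be read, and the hour at which AL rats were killed is not given in the sources used here. Reads assigned to genes ranged from 20718644 to 25960874 per sample, lowest in AL sample k. Endothelial markers were abundant (5 of 13 listed markers had an identifier and summed to between 499068 and 650107 normalized counts). The mean of that sum was 523548 in AL, 609387 in F1, 618690 in F2 and 630322 in F3. Slc2a1 made up most of it, with means of 283813 in AL, 383178 in F1, 375491 in F2 and 406911 in F3. In the edgeR test described below it was called higher than AL in F1 (adjusted p = 0.0151) and F3 (0.00302). Slco1c1 went the other way, with means of 110247, 90167, 105928 and 88795, and was called lower in F3 (edgeR adjusted p = 0.0275). Pecam1, Abcb1a and Abcg2 were not called against AL. The sum thus mostly follows Slc2a1 and was not taken as a measure of endothelial content. Microglial markers were scarce (6 of 11, summing to 56.7 to 134), and pericyte and smooth muscle markers lay between (3 of 10, Abcc9, Anpep and Acta2). Of 7 astrocyte markers Aldoc alone could be read (1529.6 to 2277 normalized counts) and of 3 red blood cell markers Alas2 alone (36.1 to 110.3), and markers of neurons, oligodendrocytes and fibroblasts were not analysed here. Normalized counts are reads scaled to a common library size by TMM and are not per length. Levels set side by side for different genes, as for the marker sums, thus also depend on transcript length and on the genes summed. Technical replicate d of F1 sample k carries an F1 title and a conflicting treatment label, and it was kept in F1. Its Bhlhe40 value of 531 CPM (counts scaled to the library total) stood beside 517 to 524 in the other 3 technical replicates of that sample.

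Arntl mRNA was lowest on day 3 of fasting, when it fell by 19.5% relative to AL, and on day 2 its mean was 102% of that in AL. In AL samples i, j and k Arntl gave 2146, 2329 and 2347 normalized counts. On day 1 it gave 2036, 1838 and 2063 normalized counts. On day 2 it gave 2572, 2233 and 2176 normalized counts. All F1 samples were below all AL samples, and the F2 samples spread across and above the AL range. On day 3 the values were 1758, 1715 and 2017 normalized counts, each below every AL and every F2 sample. In F3 against AL 35.6% of all genes did not overlap in one or the other direction, and 12% were called. Non-overlap was seen in 28.7% of all genes in F1 against AL and in 26.8% in F3 against F2. The means were 2274 ± 111 in AL, 1979 ± 123 in F1, 2327 ± 214 in F2 and 1829.7 ± 163 in F3 (SD, n = 3 samples in each group). Fewer cells with a transcript and less of it per cell cannot be told apart in bulk samples.

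Bhlhe40 mRNA had its lowest mean after 1 day and its highest mean after 2 days of fasting, at 83.2% and 113% of AL. In AL samples i, j and k it gave 15161, 16811 and 13021 normalized counts, the widest spread of the 4 groups. On day 1 it gave 13148, 11733 and 12574 normalized counts. On day 2 it gave 16776, 17390.1 and 16857 normalized counts. The F2 samples lay close together and above all F1 samples, and AL sample k lay inside the range of the day 1 samples. On day 3 the values were 13042, 12819 and 13187 normalized counts, all below every F2 sample and at the level of AL sample k. Non-overlap in one or the other direction was seen in 21.8% of all genes in F2 against F1 and in 26.8% in F3 against F2. The means were 14998 ± 1900.5 in AL, 12485 ± 712 in F1, 17008 ± 334 in F2 and 13016 ± 185 in F3 (SD, n = 3 samples in each group).

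**Figure D1:**
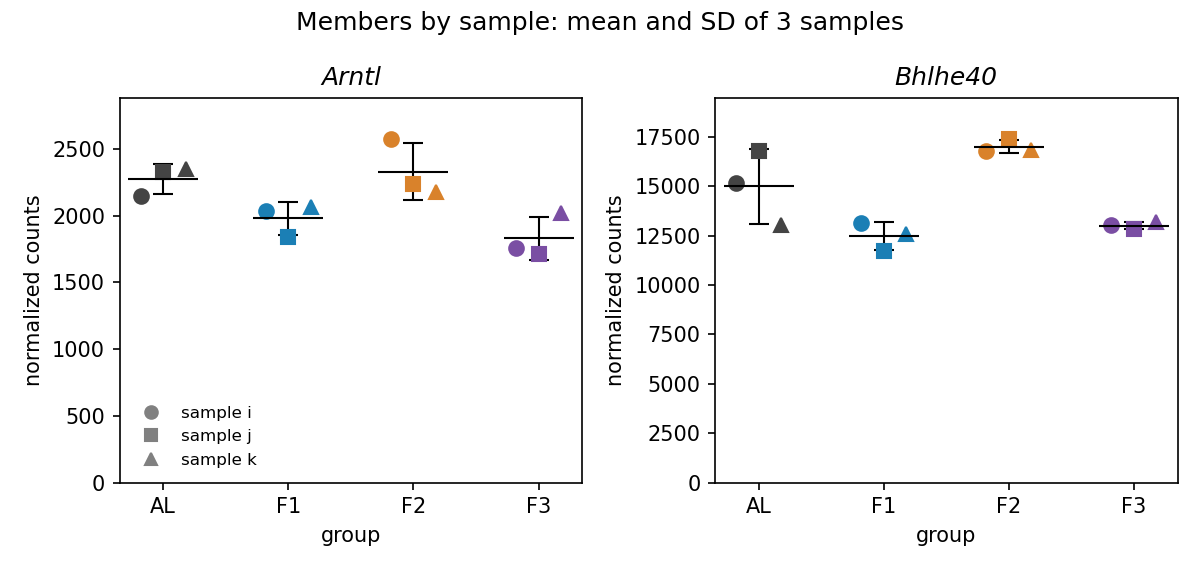
Normalized counts (y axis, from 0) of Arntl and Bhlhe40 in the AL, F1, F2 and F3 groups (x axis), 1 symbol per sample, with the mean and SD of 3 samples as bars. In both panels the 3 F3 samples lie below the 3 F2 samples, where 26.8% of all genes did not overlap in one or the other direction. AL sample k of Bhlhe40 (13021) lies far below AL sample j (16811).

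Differences between groups were tested with edgeR's quasi-likelihood test on all 13050 genes, with Benjamini-Hochberg adjustment over all of them and a threshold of 0.05. Tested over the 4 groups jointly, both members were called, with an adjusted p of 0.0432 for Arntl and 0.0153 for Bhlhe40, where 9.98% of all genes were called. The call of Arntl was lost in 9 of the 12 fits that left out 1 sample, whose adjusted p ran from 0.0300 to 0.132, and in the fit with the sample letter as a block (adjusted p = 0.0558).

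After 1 day of fasting neither member was called against AL by edgeR, where 6.57% of all genes were called. The log2 fold change of Arntl was -0.20 ± 0.09 (SE; 95% interval -0.39 to -0.01, adjusted p = 0.205), with all 3 F1 samples below all 3 AL samples. Non-overlap in either direction was seen in 28.7% of all genes in that comparison. For Bhlhe40 the log2 fold change was -0.26 ± 0.09 (SE; interval -0.45 to -0.08, adjusted p = 0.0964), and the groups overlapped through AL sample k. Without AL sample k, which had the fewest reads of the 12 samples, the Bhlhe40 difference was -0.36 with an adjusted p of 0.0317, and without AL sample j it was -0.17 with an adjusted p of 0.289. Bhlhe40 was also called by DESeq2 (-0.27, adjusted p = 0.0375) and with total counts as the scaling (-0.32, adjusted p = 0.0352), in a range of 0.0317 to 0.317 over all alternatives.

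After 2 days neither member differed from AL past the threshold, where 0.920% of all genes were called. Arntl differed by 0.03 ± 0.09 (SE; log2, interval -0.15 to 0.22, adjusted p = 0.905) and Bhlhe40 by 0.18 ± 0.09 (SE; log2, interval -0.01 to 0.37, adjusted p = 0.407). The samples of both genes overlapped with AL. The Bhlhe40 difference was 0.27 without AL sample j (adjusted p = 0.191) and 0.09 without AL sample k (adjusted p = 0.824), the lowest and highest adjusted p of its alternatives.

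After 3 days Arntl fell below AL and Bhlhe40 was not called, where 12% of all genes were called. The Arntl log2 fold change was -0.31 ± 0.09 (SE; interval -0.50 to -0.13, adjusted p = 0.0317), and 70.9% of all genes had a smaller absolute change. That of Bhlhe40 was -0.20 ± 0.09 (SE; interval -0.39 to -0.02, adjusted p = 0.157). The Arntl call was lost without AL sample i, j or k or F3 sample i or j (adjusted p 0.0529 to 0.127), in a range of 0.0127 to 0.127 over all alternatives. The Bhlhe40 difference passed without AL sample k (-0.29, adjusted p = 0.0423) and was -0.11 without AL sample j (adjusted p = 0.475), the ends of its range over all alternatives. Whether the 2 genes differed from each other in their change was not tested.

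Between day 1 and day 2 of fasting Bhlhe40 rose by 36.2% and Arntl was not called, where 1.34% of all genes were called. The Bhlhe40 log2 fold change of 0.45 ± 0.09 (SE; interval 0.26 to 0.64, adjusted p = 0.0324) ranked 80 by p among all genes, and all 3 F2 samples were above all 3 F1 samples. For Arntl the log2 fold change was 0.23 ± 0.09 (SE; interval 0.05 to 0.42, adjusted p = 0.183), also with all F2 samples above all F1 samples, as in one or the other direction for 21.8% of genes. The Bhlhe40 call depended on the samples and the fit. Leaving out any of F1 samples i, j and k, F2 samples i, j and k, or F3 samples j and k ended it (adjusted p 0.0531 to 0.177), although the log2 fold change stayed between 0.40 and 0.48, and the adjusted p over all alternatives ran from 0.000213 to 0.177. The fit with the sample letter as a block also ended it (adjusted p = 0.0521).

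Between day 2 and day 3 both members fell, where 5.88% of all genes were called. Arntl fell by 21.4% (log2 fold change -0.35 ± 0.09, SE; interval -0.53 to -0.16, adjusted p = 0.0341). Bhlhe40 fell by 23.5% (log2 fold change -0.39 ± 0.09, SE; interval -0.57 to -0.20, adjusted p = 0.0236). For both genes every F3 sample was below every F2 sample, and 26.8% of all genes did not overlap in one or the other direction. The Arntl call was lost without F2 sample i or F3 sample i or j (adjusted p 0.0937 to 0.141, in a range of 0.00675 to 0.141 over all alternatives), and that of Bhlhe40 without F3 sample i, j or k (adjusted p 0.072 to 0.0931, in a range of 0.00102 to 0.0931).

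Days 1 and 3 did not differ past the threshold for either gene. The log2 fold change of F3 over F1 was -0.11 (interval -0.30 to 0.07) for Arntl and 0.06 (interval -0.13 to 0.25) for Bhlhe40, with an adjusted p of 0.992 for each. No gene was called by edgeR in that comparison (0% of 13050), against 586 at an unadjusted p under 0.05 and 24 called by DESeq2. With other settings edgeR called 11 genes with no filter, 3 with only the 6 samples compared and 1 with the sample letter as a block. The 3 comparisons with AL share the AL samples, and the comparisons of F2 with F1 and of F3 with F2 share the F2 samples, so they are not independent of each other.

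**Figure D2:**
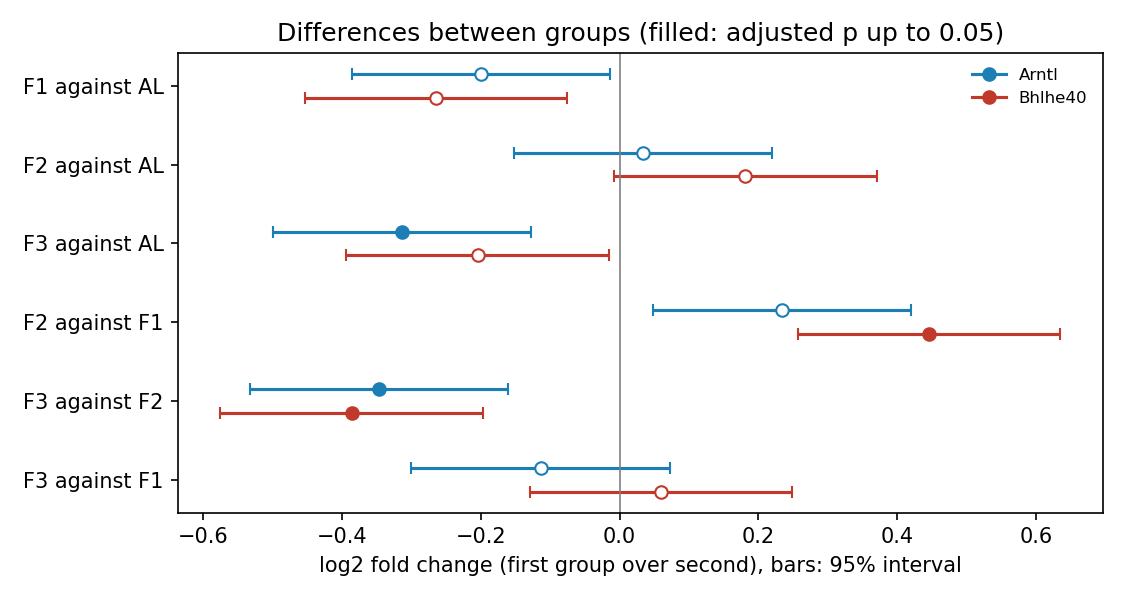
Log2 fold change (x axis) of Arntl and Bhlhe40 in 6 comparisons (y axis), with 95% intervals as bars and filled points where the edgeR adjusted p was at most 0.05. The filled points are Arntl in F3 against AL (-0.31) and F3 against F2 (-0.35), and Bhlhe40 in F2 against F1 (0.45) and F3 against F2 (-0.39).

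In order of mean level Arntl ran F2, AL, F1, F3, and Bhlhe40 ran F2, AL, F3, F1. None of the neighbours in either order differed past the threshold. The steps of each order that did were F2 to F3 in both genes, AL to F3 in Arntl and F2 to F1 in Bhlhe40. The SD within groups on the log2 scale was 0.11 for Arntl and 0.10 for Bhlhe40, against a median of 0.11 among the 4291 genes with a mean of at least 1000 normalized counts. Arntl ranked 2315 and Bhlhe40 227 of all genes by reads, which also depends on transcript length. From the lowest to the highest of the 12 samples Arntl ran from 1715 to 2572 and Bhlhe40 from 11733 to 17390.1 normalized counts.

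Levels of the pericyte and smooth muscle markers moved in part with the members. Their summed level was 1908 to 4372 normalized counts in AL, 2066 to 2365 in F1, 2451 to 4744 in F2 and 1689 to 4443 in F3, so that F1 and F2 did not overlap. Non-overlap of F2 and F1 in either direction was seen in 21.8% of all genes. Abcc9 made up most of the sum, with a mean of 2419 normalized counts against 376 for Anpep and 220 for Acta2. AL sample k, low in Bhlhe40, had the lowest sum of the AL group but the highest Arntl of that group (2347). The mean sum was 3849 in F2 and 3020.2 in F3, with overlapping samples. The log2 fold changes of Abcc9, Anpep and Acta2 in F3 against F2 were -0.33, -0.44 and -0.37. They were 0.81, 0.98 and 0.50 in F2 against F1, and -0.48, -0.65 and 0.33 in F1 against AL. Among single samples F3 sample i had 4443 normalized counts of these markers and 13042 of Bhlhe40. F2 sample j had the lowest sum of its group (2451) and the highest Bhlhe40 of all samples (17390.1). None of these 3 pericyte and smooth muscle markers was called in any of the 6 comparisons, and their part in the Bhlhe40 and Arntl differences was not tested. The astrocyte marker Aldoc had means of 1979 in AL, 1977 in F1, 1878 in F2 and 1566 in F3. Its F3 samples were all below its AL samples (log2 fold change -0.34, edgeR adjusted p = 0.111), where 35.6% of all genes did not overlap. Its part was not tested either.

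The balance of repressor to activator reads, which does not depend on library scaling, was described by the number of Bhlhe40 reads per Arntl read in each sample. It was 7.07, 7.22 and 5.55 in AL samples i, j and k, and 6.46, 6.38 and 6.09 in those of F1. On day 2 it was 6.52, 7.79 and 7.75, and on day 3 it was 7.42, 7.48 and 6.54. The F1 samples (highest 6.46) were narrowly below the F2 samples (lowest 6.52) and the F3 samples (lowest 6.54), and the AL samples spread from below F1 to near the top of F3. Of single genes, 21.8% did not overlap in one or the other direction in F2 against F1 and 13.0% in F3 against F1. Such a share was not computed for ratios. The means were 6.61 ± 0.923 in AL, 6.31 ± 0.191 in F1, 7.35 ± 0.719 in F2 and 7.15 ± 0.526 in F3 (SD, n = 3 samples in each group), and no test was made. Across the 12 samples the log2 levels of Arntl and Bhlhe40 had a Pearson r of 0.69, given as a description, since the samples share groups.

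**Figure D3:**
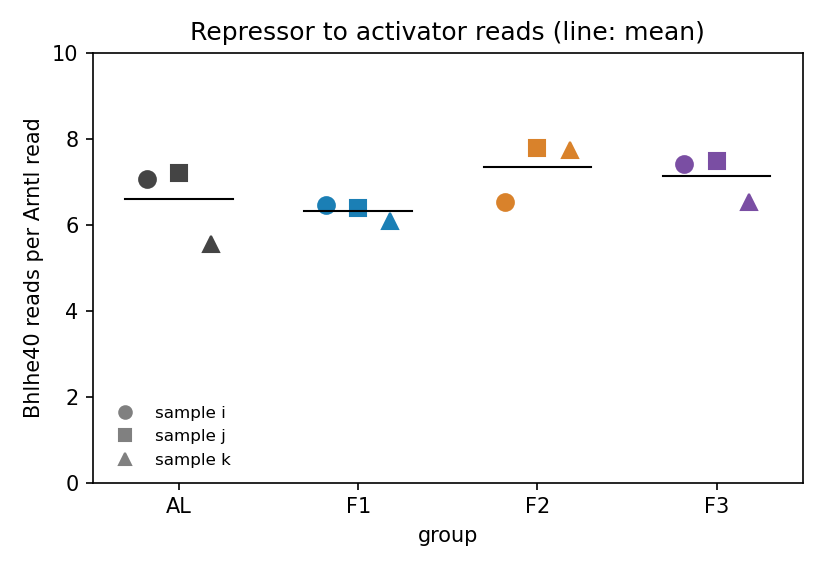
Bhlhe40 reads per Arntl read (y axis, from 0) in each sample of the 4 groups (x axis), with a line at the mean of 3 samples. The F1 samples lie between 6.09 and 6.46, and AL sample k is the lowest of all at 5.55.

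Technical replicates differed little next to the samples. Arntl had 405 to 674 reads and Bhlhe40 2679 to 4441 reads in each of the 48 technical replicates. A chi-square over the technical replicates of all samples came to 24.9 on 36 degrees of freedom for Arntl and 56.5 for Bhlhe40, so Bhlhe40 varied somewhat more than counting alone gives. For Bhlhe40 the replicates ran from 553 to 584 CPM in AL sample k and from 697 to 709 in AL sample j. The low value of AL sample k was thus present in each of its 4 technical replicates.

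**Figure D4:**
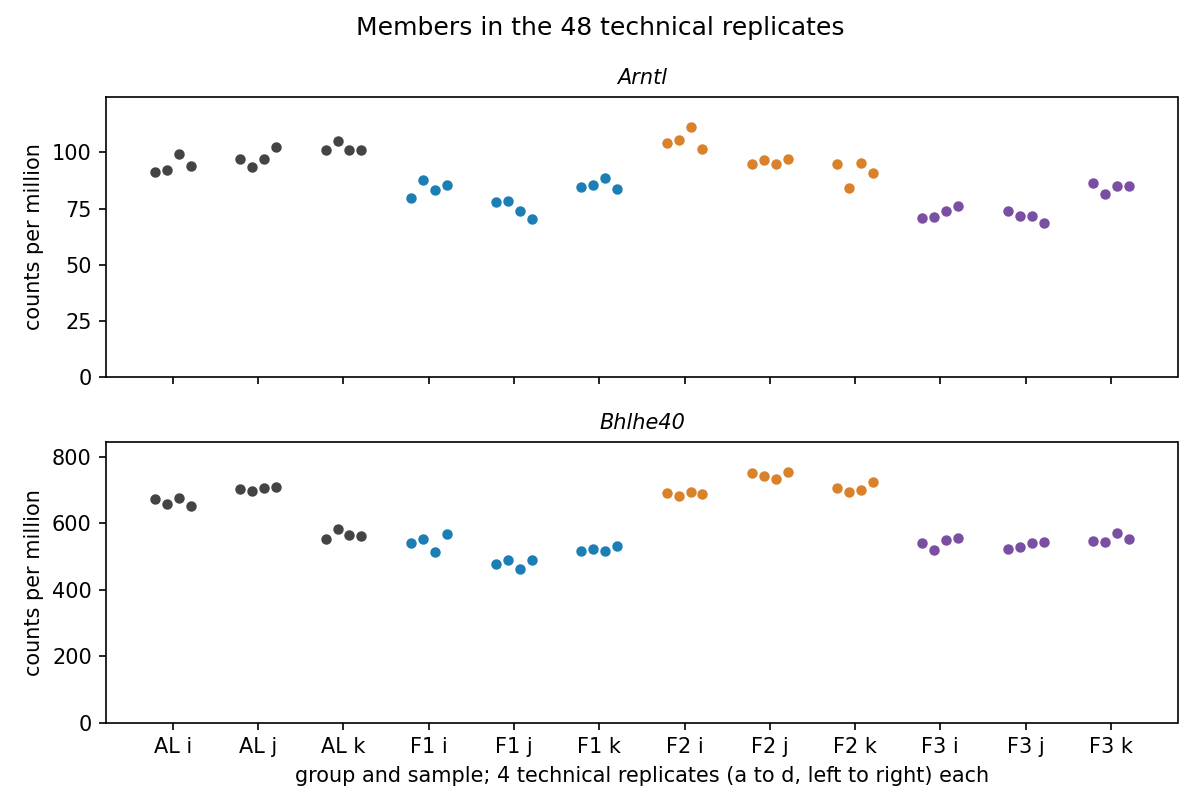
CPM, counts scaled to all assigned reads (y axis, from 0) of Arntl and Bhlhe40 in the 4 technical replicates of each of the 12 samples (x axis). The replicates of AL sample k lie between 553 and 584 CPM of Bhlhe40, below all replicates of the other AL samples.

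Few other genes of the clock could be read, since the symbol table used here was shortened and held mostly symbols early in the alphabet. None of 14 core clock genes (among them Clock, Per1, Cry1 and Nr1d1), none of 8 clock output genes and none of 8 HES and HEY relatives of Bhlhe40 had an identifier, nor did any of 10 glucocorticoid-induced genes, and they were not analysed here. Of 14 clock kinases, ligases and cofactors 1 could be tested, Btrc, a ubiquitin ligase subunit that acts on PER proteins. It was not called in any of the 6 comparisons and its means lay between 93.9% and 100.1% of AL.

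Of 9 relatives of Arntl with a PAS domain 3 could be tested, and none of the 3 was called in any of the 6 comparisons. Arnt, the partner of hypoxia-inducible factors and of the aryl hydrocarbon receptor, stood at 99.0%, 97.1% and 102% of AL on days 1, 2 and 3. Ahr, that receptor, stood at 73.8%, 94.5% and 79.8% of AL, with single F1 and F3 samples as low as 71.1 and 65 normalized counts. Arnt2, whose level was near 63 normalized counts, stood at 103%, 116% and 77.2% of AL.

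Of 17 immediate early genes, which respond to acute signals and to cell isolation, 3 could be tested, and only Atf3 was called, in F3 against AL. Atf3, a stress-responsive repressor, gave 14970.0, 9192 and 4838 normalized counts in AL samples i, j and k. It gave 6438, 5692 and 3726 on day 1 and 7148, 11622 and 7154 on day 2. On day 3 it gave 3964, 4138 and 4664 normalized counts, below every AL and every F2 sample. In these comparisons 35.6% and 26.8% of all genes did not overlap in one or the other direction. Its log2 fold change in F3 against AL was -1.18 ± 0.32 (SE; edgeR adjusted p = 0.0309). AL sample k had the lowest Atf3 of the AL samples, as it had the lowest Bhlhe40. It was also lowest in Btg2 (57344, 41638 and 30147 normalized counts in AL samples i, j and k) and in Arc (114, 87.3 and 33.3). These genes were highest in AL sample i, whereas Bhlhe40 was highest in AL sample j. Btg2 and Arc were not called, with means of 105% and 90.4% of AL on day 1, 117% and 128% on day 2 and 99.9% and 90.0% on day 3. The part of these genes' movement in the members' differences was not tested.

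**Figure D5:**
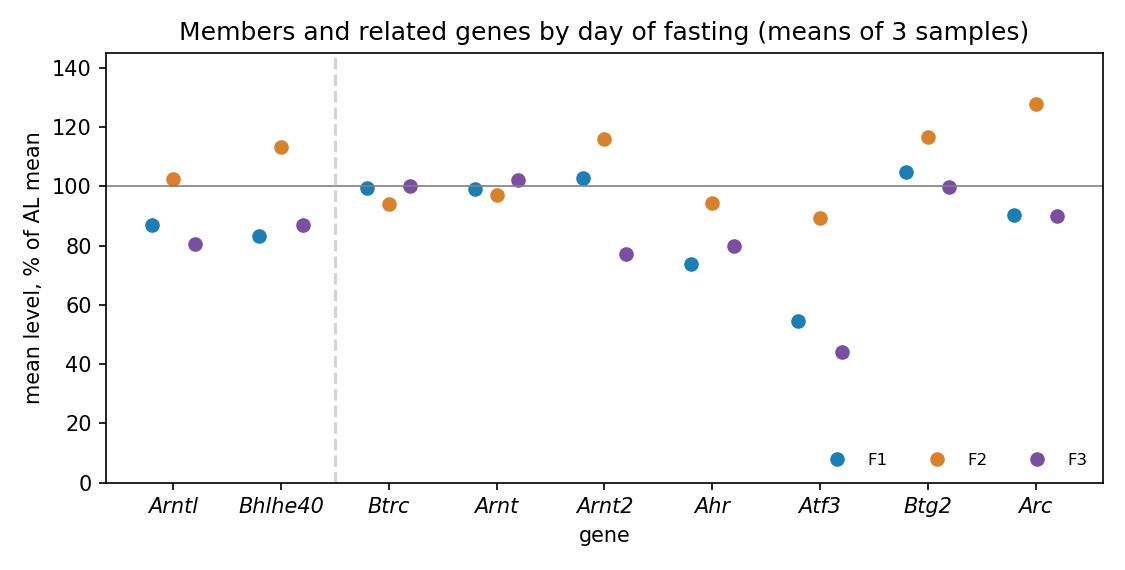
Mean level as percent of the AL mean (y axis, from 0) on days 1, 2 and 3 of fasting for Arntl and Bhlhe40 and the 7 related genes that could be tested (x axis), each the mean of 3 samples. Atf3 reaches 44.0% on day 3, and Arnt and Btrc stay between 93.9% and 102%.

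Genes whose pattern was most like that of a member were named by Pearson r of the log2 level over the 12 samples, among 1149 genes with a symbol and a mean of at least 100 normalized counts. For Arntl the highest were Bag2 (0.88), Atp6v1c1 (0.85), Ahdc1 (0.83), Bnip3l (0.83) and Ablim1 (0.80). Bag2 encodes a co-chaperone, Atp6v1c1 a subunit of the vacuolar proton pump, Bnip3l a mitophagy receptor and Ablim1 an actin-binding protein. Ahdc1 was called lower than AL on days 1 and 3 (log2 fold change -0.59, adjusted p = 0.00398, and -0.67, adjusted p = 0.00082), and higher on day 2 than on day 1 (0.51, adjusted p = 0.0319). Farthest from Arntl were Apex1 (-0.89), a DNA repair endonuclease, Armt1 (-0.88) and Aptx (-0.86), which removes adenylate from abortive DNA ligation ends.

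For Bhlhe40 the highest were Slc19a1 (0.88), the reduced folate carrier, Adpgk (0.84), an ADP-dependent glucokinase, Baz1a (0.83), a chromatin remodelling subunit, Bcl2l13 (0.81) and C1galt1c1 (0.81), a chaperone of O-glycan synthesis. Slc19a1 was higher on day 2 than on day 1 (log2 fold change 0.78, edgeR adjusted p = 0.0455). The lowest were Blzf1 (-0.92), Ccdc137 (-0.92) and Asb7 (-0.91), of which Blzf1 was higher on day 3 than on day 2 (0.50, adjusted p = 0.0426). Arntl itself had 51 of the 1149 genes above it in likeness to Bhlhe40. All points share the same 12 libraries, and these r are given without a test. For both members the genes were picked by r over those libraries. Their calls between groups follow in part from that choice and are no separate support for the members' differences.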

How the data were processed

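RNA-Seq was done on polyA+ RNA with a stranded kit. Per the study's methods and the labels, the authors aligned reads with STAR to Rnor_6.0 with Ensembl annotation, removed multi-mapping reads and counted per gene with HTSeq 0.5.3, and the strand setting is not given in the sources used here. The deposited values are raw counts in 48 technical replicates, which were summed to 12 samples. Genes with at least 1 read in each sample (13050 of 32624) were tested with edgeR 4.0.16 (R 4.3.3), TMM scaling and 1 quasi-likelihood model of the 4 groups. DESeq2 1.42.0, other scalings and filters, the sample letter as a block and leaving out each sample were the alternatives. The p-values set differences between groups against the spread between these samples within groups, and the samples' pools are described only in part. Symbols came from the study's supplementary gene lists, of which a shortened copy was used (2043 of the tested genes). The members and gene lists were chosen with earlier results of these data known. Named genes were the members, listed clock and related genes, cell type markers, and the 5 genes most like and 3 least like each member, leaving out 114 clone-like symbols. Log2 levels used a prior count of 2. Promoters are from RefSeq (GRCr8) for 3 of 3 members. Sequences of proteins were not used here.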

Additional observations from a re-analysis of the deposited data

Results flagged for a closer look

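For Bhlhe40 the change from AL differed between day 1 and day 2 of fasting, by 0.45 on the log2 scale in the test of F2 against F1. Between day 2 and day 3 the change from AL differed for Arntl (-0.35) and for Bhlhe40 (-0.39) in the test of F3 against F2. In each case the samples of the compared days did not overlap, as was so for 21.8% of all genes in F2 against F1 and 26.8% in F3 against F2. Leaving out 1 sample ended the call for Bhlhe40 in F2 against F1 in 8 of 12 fits, for Arntl in F3 against F2 in 3 and for Bhlhe40 in F3 against F2 in 3. No formal outlier test was applied to groups of 3 samples.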

How the results depend on the processing

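Of 290 recomputed values for both members, 251 kept their direction and side of the threshold, 32 lost the call, 4 gained it and 3 turned direction. Only results called in the edgeR fit of all 12 samples could lose a call. In F3 against AL Arntl lost it in 5 of 21 alternatives, and in F2 against F1 Bhlhe40 lost it in 10 of 21. In F3 against F2 Arntl lost it in 4 of 21 and Bhlhe40 in 3 of 21. Jointly, Arntl lost it in 10 of 19 and Bhlhe40 in 0 of 19. With total counts Arntl in F2 against AL turned to -0.0038 and Bhlhe40 in F1 against AL passed at -0.32, as it did in DESeq2 at -0.27. With only the 6 samples compared, Bhlhe40 in F2 against F1 (0.45) and Arntl in F3 against F2 (-0.34) lost the call. With the sample letter as a replicate block, Bhlhe40 in F2 against F1 (0.45, adjusted p = 0.0521) and Arntl jointly (adjusted p = 0.0558) lost it, no other call of the members changed, and genes called in F2 against F1 went from 175 to 102. Letters were not taken as pairs. Sample deviations correlated at -0.11 to 0.21 within letters (median 0.047, 18 pairs) and -0.25 to 0.28 between (median -0.067, 36). Without 1 sample, log2 fold changes ran as follows. In F1 against AL Bhlhe40 ran from -0.36 to -0.17. In F2 against AL Arntl ran from -0.044 to 0.080, below 0 without AL sample i or F2 sample i, and Bhlhe40 from 0.09 to 0.27. In F3 against AL Arntl ran from -0.38 to -0.27 and Bhlhe40 from -0.29 to -0.11. In F2 against F1 Bhlhe40 ran from 0.40 to 0.48. In F3 against F2 Arntl ran from -0.41 to -0.27 and Bhlhe40 from -0.40 to -0.37. The joint adjusted p of Arntl ran from 0.0300 to 0.132, and that of Bhlhe40 stayed at or under 0.0455 in all 19 alternatives. The joint call of Arntl was lost without any AL or F1 sample, F2 sample i or F3 sample i or j. Fewer samples are part of each such fit, and other causes were not tested.

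Counts of genes called moved by more than 1.5 times in places. In F2 against AL 120 genes became 0 with the 6 samples compared, 196 with no filter and 359 in DESeq2. In F2 against F1 175 became 36, 305 and 616 under the same settings, and 0 without F1 sample i or j. In F3 against F2 767 became 226 with the 6 samples and 1228 in DESeq2, and 146 without F3 sample i. In F3 against F1 0 became 24 in DESeq2, 11 with no filter, 3 with the 6 samples, 1 with the block and 1 without F2 sample i or F3 sample j. The lowest and highest counts without 1 sample were 305 and 1468 in F1 against AL, 36 and 157 in F2 against AL, and 784 and 2382 in F3 against AL, against 857, 120 and 1567. With total counts the higher share of calls was 39.4% in F1 against AL, 46.7% in F2 against AL and 41.3% in F3 against AL, against 59.7%, 58.3% and 52.3%. On that scale the mean Bhlhe40 level was 111% of AL on day 2 and 84.2% on day 3, against 113% and 86.8%. Leaving out technical replicate d of F1 sample k changed no call of the members.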
